A study of Mus musculus with 4 samples.

Results

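Intraflagellar transport (IFT) is the traffic of protein trains along the microtubules of the cilium, and 34 genes that encode its particles and motors were followed here in mouse dermal hyperplasia cells. The genes were chosen by name. They comprise 6 subunits of the IFT-A complex, 12 genes of the IFT-B core, 6 of peripheral IFT-B, 5 of the dynein-2 motor, 4 of kinesin-2, and Kif7, which belongs to the kinesin-4 family and is not a train motor. All 34 had a row among the 22524 genes counted per library. The selection rule uses gene names and no measured value, although it was written with earlier results of these data known.

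The primary cilium is a single antenna-like projection of the cell surface. It is built and maintained by IFT, in which IFT-B trains pulled by kinesin-2 carry cargo to the tip and IFT-A trains pulled by dynein-2 return it to the base. IFT-A also brings membrane receptors into the cilium, and signals such as Hedgehog are read there. The series title names EZH2, the catalytic subunit of Polycomb repressive complex 2, in connection with loss of the cilium in melanoma, so the comparison asks whether the RNA of this machinery differs when the mutant Ezh2Y646N is present.

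RNA sequencing was done on 4 libraries, 2 named NrasQ61K and 2 named Ezh2Y646N, the latter with both mutants. Per the labels, all the mice carried the oncogene Tyr::NrasQ61K, the tamoxifen-dependent recombinase Tyr::CreERT2 and the red fluorescent reporter R26R-LSL-tdTomato, and were given tamoxifen. Those of the Ezh2Y646N group also carried ColA1-LSL-Ezh2Y646N, an allele that is silent until the recombinase removes its stop cassette. The oncogene and the recombinase were both driven by the tyrosinase promoter, which is active in pigment cells, and tdTomato-positive cells of the pre-tumorigenic skin were sorted by fluorescence. The labels give no age, and do not say whether libraries of a group came from separate animals, so a p-value here reflects only how far these libraries scatter, and that scatter may be technical. With bulk RNA, fewer cells of a type and less RNA per cell cannot be told apart.

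Libraries held 14808801 to 20600297 counts, of which the 34 genes took 0.0904% to 0.112%. Levels are given as CPM, a depth-scaled count that uses TMM-adjusted library sizes, and fold changes as log2 of Ezh2Y646N over NrasQ61K from edgeR's quasi-likelihood test, with 95% intervals that were not adjusted for the number of genes. The 8 melanocyte markers were all detected in every library and summed to 3806 and 3922 CPM with mutant Ezh2 and to 2604.5 and 3406 CPM with NrasQ61K alone, led by Dct and Tyrp1. Markers of other skin cells were abundant too: the 6 basal keratinocyte markers, led by Krt5 and Krt14, summed to 13061 and 20178 CPM against 9871 and 23560 CPM. The share of RNA that came from pigment cells was not measured.

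Sequence near the start of many of these genes shares a feature that the choice did not use. RFX transcription factors, known regulators of ciliary genes, bind the X-box, an inverted repeat of the half-site GTTGCC. In RefSeq promoter windows on GRCm38.p6, from 250 bases before to 50 bases after each gene's start, 29 of the 34 genes had a window. The half-site GTTGCC was found on either strand in 13 of the 29 (44.8%), against 12.5% of all 32851 windows. A stricter X-box, GTTNCC followed by 0 to 3 bases and GGNAAC, was found in 3 of the 29 (10.3%) and in 0.804% of all windows. The 2 forms overlap, and a window whose stricter match contains the half-site is counted for both. The members' windows held a median of 20 CG dinucleotides, against 7 over all windows. These are matches of letters and not measured binding sites.

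The following 30-base stretches show the 3 stricter matches and then 1 half-site each from IFT-A, peripheral IFT-B, dynein-2 and kinesin-2. Each reads 5′ to 3′ on the gene's strand, with the match in capitals.
Ift57 (chr16:49699226-49699255, plus strand): gccctgcgGTTGCCTGGTAACggtggggac
Ttc26 (chr6:38381483-38381512, plus strand): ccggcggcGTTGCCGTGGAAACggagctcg
Ttc30a2 (chr2:75978182-75978211, minus strand): gttggcttGTTGCCATGGGAACaagcacac
Ift140 (chr17:25015965-25015994, plus strand): gcgtgttgtgacGGCAACctcgcgcccttg
Ift172 (chr5:31291097-31291126, minus strand): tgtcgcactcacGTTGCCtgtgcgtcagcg
Dync2h1 (chr9:7177009-7177038, minus strand): catagcgacggagcttGGCAACtgctgagt
Kif3a (chr11:53567259-53567288, plus strand): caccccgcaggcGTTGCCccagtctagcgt
The window of Ift20, the gene with the smallest p below, held neither form.

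Almost the whole machinery was expressed. Of the 34 genes, 33 passed the filter on low counts, and Ttc30a2 did not. Levels of different genes were compared per length, as CPM per kilobase of merged exons. On this scale Ift20, which carries membrane proteins from the Golgi to the cilium as well as serving in peripheral IFT-B, was highest, at 36.1 ± 11.4 (SD over the 4 libraries, which spans both groups). Cluap1 (IFT38) followed at 19.2 ± 3.30 and the IFT-A subunit Ift43 at 13.1 ± 2.28. Another gene model overlaps Cluap1, as set out below, so its counts and its place here are uncertain. Ift20 did not overlap Cluap1 in any library, from 24.8 to 49.4 against 16.6 to 24.1. Cluap1 did not overlap Ift43, at 10.6 to 16.1, but this order depended on the length used: per kilobase of the longest transcript, Ift43 was at 25.9 and Cluap1 at 24.6, both below Ift20 at 47.2.

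Ift52, Ift74, Kifap3 and Kif3a came next, with means from 12.9 down to 11.9 CPM per kilobase, and their ranges overlapped, so no order among them was resolved. By mean level, the lowest tested genes were Kif17 (0.211 ± 0.0671, SD over the 4 libraries) and Ttc30a1 (1.11 ± 0.254), with either length. The counts of Ttc30a1 are uncertain, as set out below. Wdr19 was next on merged exons (1.33 ± 0.340), but its range overlapped those of Ttc30a1, Ttc26 and Tctex1d2. The ranges of Ttc30a1 and Ttc26 overlapped as well. Per kilobase of the longest transcript Wdr19, at 2.39, was above Tctex1d2 (2.07) and Ttc26 (2.01). The 3 subunits of heterotrimeric kinesin-2 lay close together, at 12.0 for the adaptor Kifap3, 11.9 for the motor subunit Kif3a and 9.09 for its partner Kif3b. Kif17, the homodimeric kinesin-2, was more than an order of magnitude below them in every library. Dynein-2 subunits ranged from 7.01 for the light intermediate chain Dync2li1 to 1.87 for the light chain Tctex1d2, while with the longest transcript as length Wdr60 was the highest of them, at 10.7 against 9.68 for Dync2li1.

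**Figure D1:**
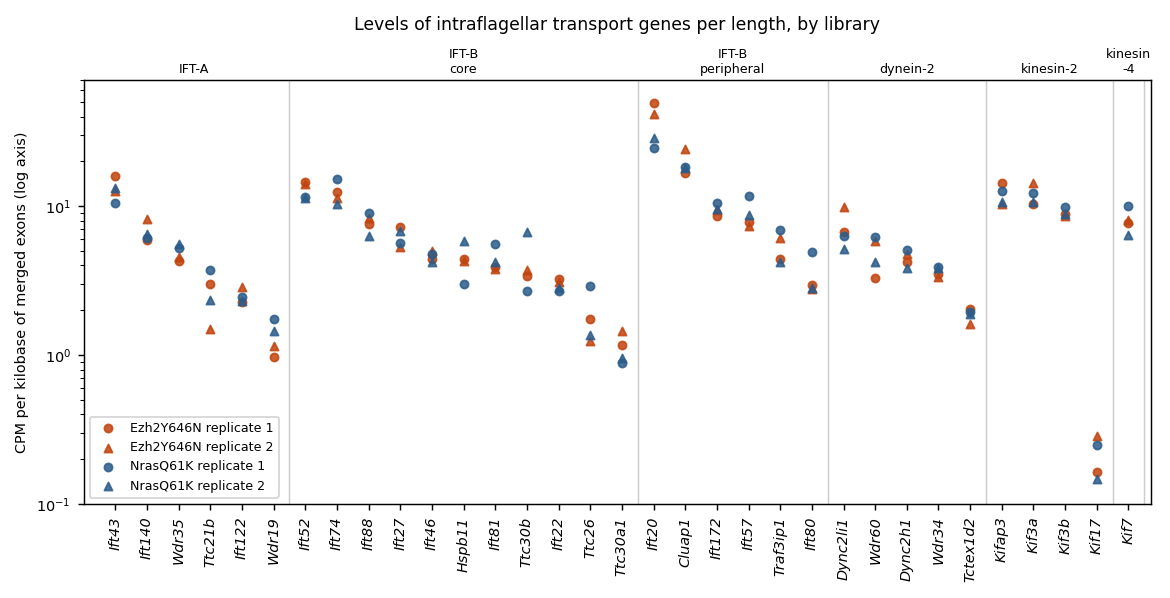
Levels of 33 genes of intraflagellar transport in CPM per kilobase of merged exons (log axis), 1 point per library, with circles for replicate 1 and triangles for replicate 2, grouped by subcomplex and ordered by mean. Ift20 is highest, with both Ezh2Y646N libraries above both NrasQ61K libraries, and Kif17 is lowest, between 0.147 and 0.286; Ttc30a2, at 0 in 2 libraries, is not drawn.

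No gene of the set passed the threshold in the unblocked test. At an adjusted p under 0.05, edgeR's quasi-likelihood test called 0 of the 33 tested members, where it called 1.77% of all 14265 tested genes, 1.1% as higher with mutant Ezh2 and 0.673% as lower. DESeq2 and limma voom also called 0 of the members, against 6.13% and 1.5% of the genes they tested. With 1 library left out at a time edgeR again called 0 members, against 0.63% and 1.47% of genes without Ezh2Y646N replicate 1 or 2, and 2.95% and 7.66% without NrasQ61K replicate 1 or 2. Blocking on replicate number, which the labels do not say pairs libraries, called 1 member (Ift20), against 9.37% of genes. At an unadjusted p under 0.05 there was 1 member (3.03%), Ift20, against 14.3% of all tested genes. The median log2 fold change over the members was -0.014, with 16 above 0 and 17 below, and the median over all tested genes was -0.042.

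The sizes were small as well. The median size of a member's log2 fold change was 0.17, against 0.30 over all tested genes, and 5 members (15.2%) reached 0.5 in size, against 31.5% of tested genes. These 5 were Ift20, Dync2li1, Ttc30a1, Ttc26 and Wdr19. For 22 of the 33 members (66.7%) the 95% interval lay inside the range from a 2-fold decrease to a 2-fold increase, as it did for 46.8% of all tested genes. The other 11 intervals, that of Ift20 among them, reached past 2-fold on 1 side or both, so a change of that size was within the interval for those genes. The groups did not overlap in CPM for 11 members (33.3%), 5 with both Ezh2Y646N libraries higher and 6 with both lower, against 44.2% of all tested genes (21.1% higher and 23.1% lower).

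**Figure D2:**
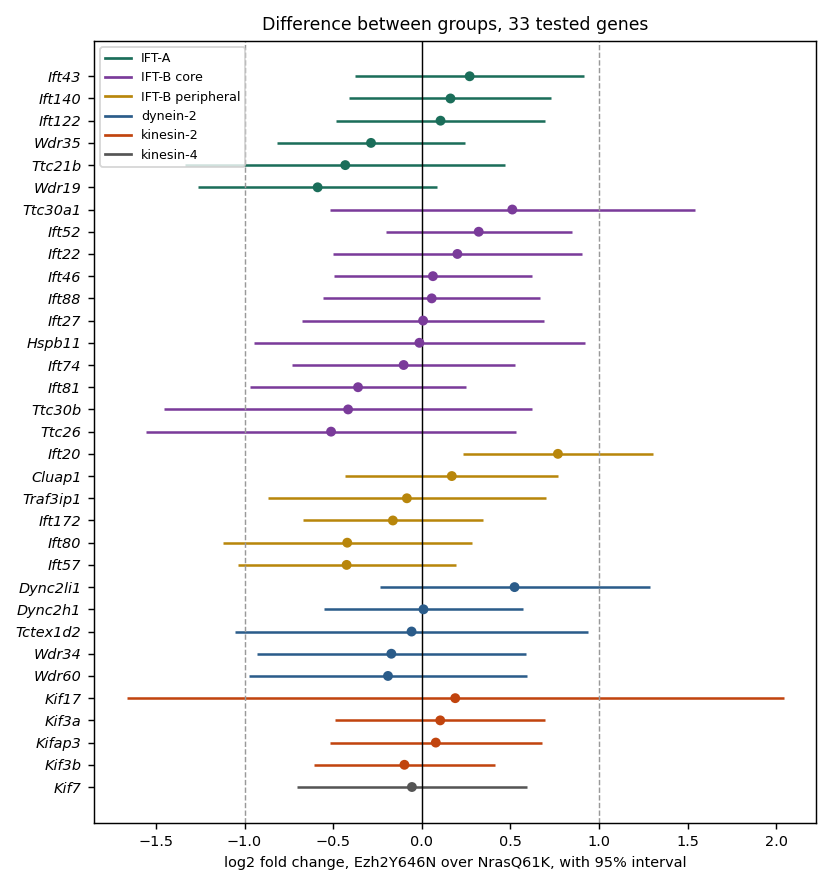
Log2 fold change of each tested gene, Ezh2Y646N over NrasQ61K, with its 95% interval from edgeR (n = 2 libraries per group), ordered within each subcomplex; dashed lines mark a 2-fold change. The interval of Ift20, from 0.23 to 1.30, is the one that leaves out 0, and that of Kif17, from -1.66 to 2.04, is the widest.

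IFT-A, the complex of return transport and of receptor entry, had 6 tested subunits, of which 0 passed; 3 were above 0 and 3 below, with a median log2 fold change of -0.09. Wdr19 (IFT144; ENSMUSG00000037890, GRCm38 chromosome 5, 65199696 to 65260415), a core subunit, was measured at 11.0 and 13.1 CPM with mutant Ezh2 and at 19.7 and 16.4 CPM with NrasQ61K alone. Both Ezh2Y646N libraries were below both NrasQ61K libraries, with mean levels of 12.0 ± 1.47 CPM (SD, n = 2) and 18.1 ± 2.35 CPM (SD, n = 2). Its log2 fold change was -0.59 (SE 0.29, interval -1.26 to 0.08), with an adjusted p of 0.429 in edgeR. Wdr35 (IFT121; chromosome 12, 8973892 to 9028847), a peripheral subunit of the complex, was at 31.3 and 33.1 CPM against 38.1 and 40.5 CPM. The groups were again separate, with replicates close to each other, but the log2 fold change was small, at -0.29 (SE 0.23, adjusted p 0.675 by edgeR).

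The other IFT-A subunits had overlapping groups. Ttc21b (IFT139) had a log2 fold change of -0.43, and its Ezh2Y646N libraries stood apart from each other, at 27.8 and 13.9 CPM, as did its NrasQ61K libraries, at 34.6 and 21.8 CPM. Ift43 was at 0.27, Ift140 at 0.16 and Ift122 at 0.11. Of these 6 genes, the intervals of Wdr19 and Ttc21b reached past a 2-fold decrease. Summed CPM of IFT-A was 169.8 and 178.7 with mutant Ezh2 and 186.6 and 178.4 with NrasQ61K alone, so the groups overlapped.

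The IFT-B core, the backbone that binds tubulin and cargo, had 11 tested genes, of which 0 passed, with 6 above 0, 5 below and a median of 0.0073. Ift52 (ENSMUSG00000017858, chromosome 2, 163017354 to 163046141), which ties the parts of the core together, was at 40.9 and 39.4 CPM with mutant Ezh2 and at 32.3 and 31.9 CPM with NrasQ61K alone. Replicates were nearly equal and the groups did not overlap, yet the log2 fold change was 0.32 (SE 0.23, interval -0.20 to 0.85) and edgeR's adjusted p was 0.625. Ift81 (chromosome 5, 122550204 to 122614518), which binds tubulin together with Ift74, lay the other way. It was at 22.8 and 22.0 CPM against 32.8 and 24.8 CPM, or -0.36 as log2 fold change (SE 0.26; adjusted p 0.640 by edgeR). Its partner Ift74 was at -0.10 with overlapping groups.

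Ift88, mutated in a classic mouse model of defective cilia, had a log2 fold change of 0.056 (SE 0.26) with an interval of -0.56 to 0.67. It was measured at 35.0 and 38.7 CPM against 41.8 and 29.2 CPM, so the NrasQ61K libraries enclosed both others. The small GTPase Ift27 and its partner Hspb11 (IFT25), which together return the BBSome from the cilium, were at 0.0073 and -0.014. Ift46 was at 0.063. Ift22, another small GTPase, was at 0.20, with both Ezh2Y646N libraries slightly above the others. Ttc26 (IFT56) was at -0.51 and rested on 1 high library, with 13.7 CPM in NrasQ61K replicate 1 and 5.80 to 8.22 CPM in the other three.

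The 3 Ttc30 genes encode near-identical forms of IFT70, and their counts are uncertain. Of the 50-base words in their annotated transcripts, 31.8% of those of Ttc30a1, 53.9% of Ttc30a2 and 34.8% of Ttc30b also occur in a transcript of another gene, mostly in each other. Ttc30a2 had 5 counts in Ezh2Y646N replicate 1, 5 in NrasQ61K replicate 2 and 0 in the other two libraries, where 0 counts allow up to 0.207 and 0.190 CPM by counting error alone. Ttc30a1 and Ttc30b had log2 fold changes of 0.51 and -0.42. Summed over the 3 copies, the level was 13.9 and 15.5 CPM against 10.7 and 22.2 CPM, with the NrasQ61K libraries on both sides of the Ezh2Y646N libraries.

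Peripheral IFT-B, which connects trains to kinesin-2 and to the membrane, held the member with the smallest p. Of its 6 genes 0 passed, 2 were above 0 and 4 below, with a median of -0.12. Ift20 (ENSMUSG00000001105, chromosome 11, 78536361 to 78541737) was at 75.3 and 63.5 CPM with mutant Ezh2 and at 37.8 and 43.7 CPM with NrasQ61K alone. The lower Ezh2Y646N library was well above the higher NrasQ61K library, and these values rested on 598 to 1310 counts. The log2 fold change was 0.77 (SE 0.23, interval 0.23 to 1.30), with an unadjusted p of 0.0111 and an adjusted p of 0.163 in edgeR. With 1 library left out at a time it stayed between 0.64 and 0.92, and the adjusted p lay between 0.0681 and 0.627.

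Some marker lists separated the groups in the direction of Ift20. The 5 suprabasal and cornified keratinocyte markers found, led by Krt10 and Krt1, summed to 36385 and 25672 CPM with mutant Ezh2 against 2824 and 7360 CPM. Of these 5, 3 passed the adjusted threshold in edgeR as higher with mutant Ezh2, where 1.1% of all tested genes did. The summed melanocyte markers were higher by a smaller margin, as given above. Dct was the largest part of that sum, at 2203 and 2757 CPM with mutant Ezh2 against 1486 and 2002 CPM. Of the 8 melanocyte markers, 3 were higher without overlap, 1 (Kit) was lower without overlap, and 4 overlapped. Groups did not overlap for 44.2% of all tested genes, and 0 of the 8 passed the adjusted threshold. None of the markers of these lists was at 0. Their part in the Ift20 difference was not tested.

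Ift57 (chromosome 16, 49699233 to 49765126), a partner of Ift20 within peripheral IFT-B, did not share its direction. It was at 22.4 and 21.2 CPM against 33.6 and 24.9 CPM, so both Ezh2Y646N libraries were below both others, at -0.42 as log2 fold change (SE 0.26; adjusted p 0.565 by edgeR). Of its exon bases, 7.9% overlap the antisense gene model Gm15518, so with the strand setting unknown its counts are uncertain. Ift80 was also at -0.42, which followed 1 library, with 61.0 CPM in NrasQ61K replicate 1 and 34.8 to 36.8 CPM elsewhere. Ift172, the largest IFT-B subunit and a part of the turnaround at the tip, was at -0.16 with separate groups, from 56.5 and 62.0 CPM to 69.1 and 63.6 CPM. Traf3ip1 (IFT54) was at -0.084 and Cluap1 at 0.17, both with overlapping groups. Of the exon bases of Cluap1, 22.4% overlap the gene model Gm20695 on the same strand, so its counts are uncertain.

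Without Ift20, the other 5 peripheral genes summed to 169.9 and 195.6 CPM with mutant Ezh2 and to 230.9 and 180.2 CPM with NrasQ61K alone. The groups overlapped in this sum. With Ift20, the subcomplex summed to 245.2 and 259.1 CPM against 268.7 and 223.9 CPM, and the groups overlapped here too.

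Dynein-2, the motor of return transport, had 5 tested subunits, of which 0 passed, with 2 above 0, 3 below and a median of -0.058. Its heavy chain Dync2h1, which holds the motor domain, was at 68.6 and 78.6 CPM against 83.6 and 62.7 CPM, a log2 fold change of 0.0095 (SE 0.24) whose interval ran from -0.55 to 0.57. Dync2li1 (ENSMUSG00000024253, chromosome 17, 84626496 to 84655588), the light intermediate chain that stabilises the heavy chain, was at 12.5 and 18.4 CPM with mutant Ezh2 and at 11.8 and 9.69 CPM with NrasQ61K alone. The groups were separate by a narrow margin and the Ezh2Y646N replicates differed by more than the fitted group difference, which was 0.52 as log2 fold change (SE 0.33; adjusted p 0.566 by edgeR). Wdr60 (chromosome 12, 116206262 to 116263022), an intermediate chain, was at 26.8 and 47.4 CPM against 50.6 and 34.1 CPM. Each group held 1 high and 1 low library, and the log2 fold change was -0.19 (SE 0.34, adjusted p 0.880 by edgeR). The other intermediate chain, Wdr34, was at -0.17 and Tctex1d2 at -0.058.

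Kinesin-2, the motor of outward transport, spanned the narrowest range of fold changes of the 5 subcomplexes. Of its 4 genes 0 passed, with 3 above 0, 1 below and a median of 0.091. Kif3b (ENSMUSG00000027475, chromosome 2, 153291413 to 153333390) was at 50.3 and 48.6 CPM with mutant Ezh2 and at 55.7 and 50.2 CPM with NrasQ61K alone, a log2 fold change of -0.098 (SE 0.22, interval -0.61 to 0.41, adjusted p 0.911 by edgeR). Kif3a (chromosome 11, 53567379 to 53601967) was at 37.2 and 51.2 CPM against 43.9 and 38.4 CPM, or 0.10 as log2 fold change (SE 0.25; adjusted p 0.919 by edgeR). In both, the groups overlapped, and the intervals of Kif3a, Kif3b and Kifap3 (0.079) all lay inside a 2-fold change in either direction. Kif17 had 13 to 19 counts per library, and its interval allowed changes past 2-fold in both directions.

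Kif7 (ENSMUSG00000050382, chromosome 7, 79698098 to 79715720) organises the tip of the cilium for Hedgehog signalling. It was at 35.3 and 37.2 CPM with mutant Ezh2 and at 46.1 and 29.3 CPM with NrasQ61K alone. The NrasQ61K libraries lay on both sides of the others, and the log2 fold change was -0.056 (SE 0.28, interval -0.71 to 0.59, adjusted p 0.959 by edgeR). Of its exon bases, 19.1% overlap the antisense gene model 9330171B17Rik, and the strand setting of the counting is not given in the sources used here, so its counts are uncertain.

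The libraries of a group often differed by more than the groups did, among the members as among all tested genes. For 20 of 33 members (60.6%) the NrasQ61K replicates were further apart, on the log2 CPM scale, than the fitted group difference, and for 19 (57.6%) the Ezh2Y646N replicates were, against 55.0% and 48.8% of all tested genes. NrasQ61K replicate 1 was above replicate 2 in 24 of 33 members (72.7%), against 49.5% of all tested genes. It was the highest of the 4 libraries for 15 members (45.5%), against 32.7% of all tested genes, and NrasQ61K replicate 2 was the highest for 3. The largest gap went against this, in Ttc30b, at 7.39 CPM in NrasQ61K replicate 1 and 18.4 CPM in replicate 2. Without NrasQ61K replicate 1 the median log2 fold change over the members was 0.13, and without NrasQ61K replicate 2 it was -0.11. Neither these medians nor the one with all 4 libraries came with a called gene.

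**Figure D3:**
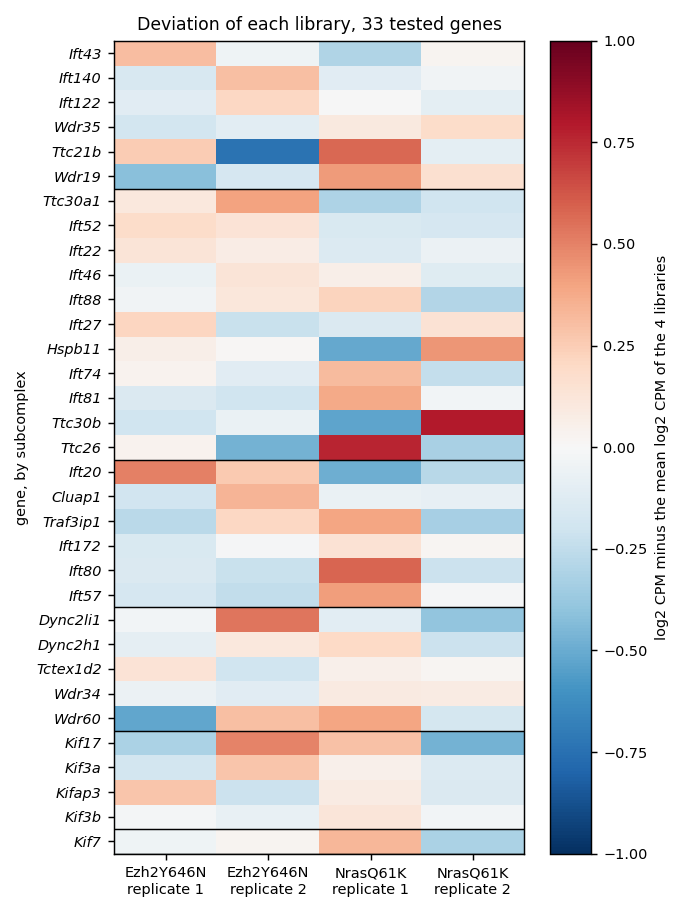
Log2 CPM of each of the 33 tested genes in each library, minus the gene's mean over the 4 libraries, with red above and blue below; lines separate the subcomplexes. The column of NrasQ61K replicate 1 is the highest for 15 of the 33 genes, while Ift20 is high in both Ezh2Y646N libraries.

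Other lists were also highest by sum in NrasQ61K replicate 1, and the fibroblast and hair lists separated the groups as well. The 10 proliferation genes, led by Mki67 and Top2a, summed to 2658 CPM there, 1138 CPM in NrasQ61K replicate 2, and 1852 and 1200.5 CPM with mutant Ezh2, and 8 of the 10 were highest in it. The 7 fibroblast markers, led by Col1a1 and Col3a1, summed to 4018 CPM there against 2345 CPM in the other NrasQ61K library and 805 and 2021 CPM with mutant Ezh2. The 5 hair shaft and inner root sheath markers found, led by Tchh and Krt71, summed to 2328 and 1352 CPM with NrasQ61K alone against 445 and 188 CPM. All 7 fibroblast and all 5 hair markers had both Ezh2Y646N libraries below both others, where 23.1% of all tested genes did. In edgeR 4 of the 5 hair markers and 1 of the 7 fibroblast markers passed as lower, where 0.673% of all tested genes did. Of the 10 proliferation genes 0 passed, and the groups overlapped for all 10. The part of these lists in the values of the transport genes was not tested.

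Endothelial and macrophage sums were lower in both libraries with mutant Ezh2, while the pericyte sums overlapped between the groups. The 6 endothelial markers, led by Plvap and Pecam1, summed to 122 and 73.4 CPM with mutant Ezh2 against 197 and 173 CPM. The 6 macrophage and dendritic cell markers, led by Cd74 and Lyz2, summed to 63.9 and 136 CPM against 147 and 381 CPM. The 5 pericyte and smooth muscle markers, led by Cspg4 and Myh11, summed to 236.5 and 244 CPM against 181 and 268 CPM. Cspg4 alone was at 174 and 190 CPM against 109 and 185 CPM. The 5 did not share a direction. Acta2 passed as lower with mutant Ezh2, at -1.75 as log2 fold change (adjusted p 0.0356 by edgeR), where 1.77% of all tested genes passed. Des was higher without overlap, at 0.60, and the groups overlapped for the other 3. None of the markers in these lists that had a row was at 0 in any library. Summed levels of the transport subcomplexes spanned a far narrower range across libraries than most of these lists, with all 34 genes at 941 and 993 CPM with mutant Ezh2 and at 1047 and 896 CPM with NrasQ61K alone.

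**Figure D4:**
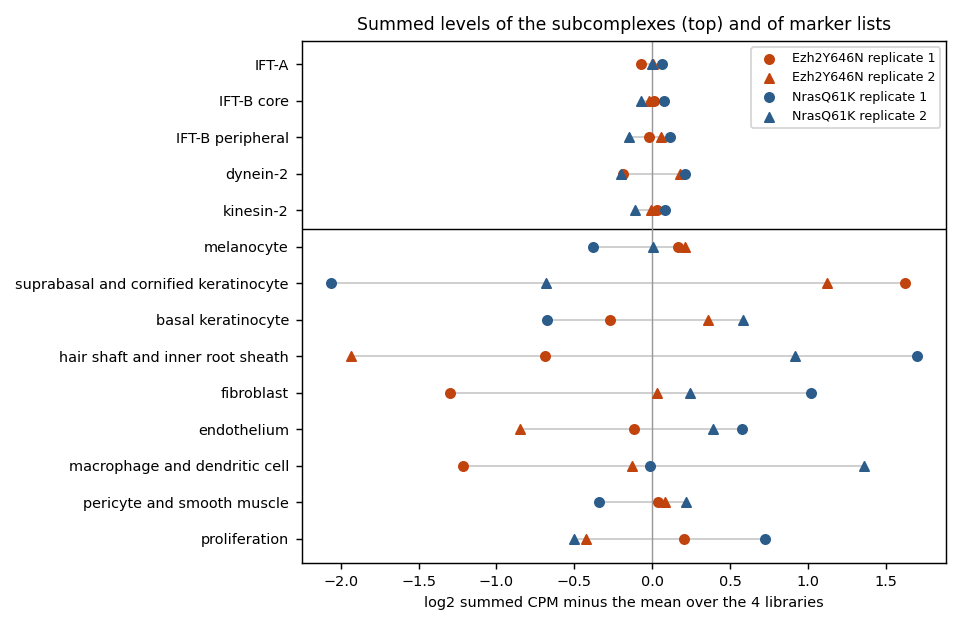
Summed CPM in each library, as log2 minus the mean over the 4 libraries, for 5 transport subcomplexes (above the line) and the marker lists described in the text (below), with circles for replicate 1 and triangles for replicate 2. The subcomplexes stay near 0 in all libraries, while suprabasal keratinocyte, hair and fibroblast lists spread widely.

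A further 32 genes that work with the trains were examined in the same fit. Of these, 28 were tested and 0 passed in edgeR, with 11 above 0, 17 below and a median log2 fold change of -0.17. An unadjusted p under 0.05 was found for 3 of the 28, where it was found for 14.3% of all tested genes, and 54.0% of all tested genes were below 0. Mak, a kinase, and Dynlrb2, Dync1i1 and Rfx4 were not tested because of low counts. The 10 adaptors and small GTPases had a median of -0.25, with 9 below 0. Of the 10, 8 were highest in NrasQ61K replicate 1, against 32.7% of all tested genes. Among the 10, Fgfr1op, a basal body protein that recruits trains together with Cep19, was at -0.60 with overlapping groups. This followed NrasQ61K replicate 1, with 64.5 CPM there and 27.6 to 35.7 CPM elsewhere. With 1 library left out at a time, Fgfr1op ran from -0.98 to -0.0099. Lztfl1, which controls BBSome entry, was at -0.46 and Rabl2, a GTPase that starts trains off from the base, at -0.51. Tulp3, the adaptor by which IFT-A brings in receptors, was at -0.25, and Trip11 (GMAP210), which anchors Ift20 at the Golgi, at 0.25. The adjusted p in edgeR was 0.533 or higher for each of the 10. Of the 3 tested kinases, Mok was at -1.29 and followed NrasQ61K replicate 1, with 8.15 CPM there and 1.90 to 2.28 CPM elsewhere, Ick was at 0.31 and Cdk20 at -0.21.

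Light chains that dynein-2 shares with cytoplasmic dynein-1 had 2 of the 3 smallest p-values in this list. Dynlt3 was at 214 and 177 CPM with mutant Ezh2 and at 75.4 and 132 CPM with NrasQ61K alone, a log2 fold change of 0.91 (SE 0.30, interval 0.21 to 1.61, adjusted p 0.202 by edgeR). Dynll1 was at 311 and 301 CPM against 197 and 228 CPM, or 0.52 as log2 fold change (SE 0.22; adjusted p 0.342 by edgeR). Both Ezh2Y646N libraries were above both others in each gene, as they were in Ift20. Dynlrb1 and Dynll2 were at 0.11 and -0.068 with overlapping groups. All 4 tested genes of cytoplasmic dynein-1, the motor of the cell body, also had both Ezh2Y646N libraries higher, with log2 fold changes of 0.40 for Dync1i2, 0.30 for Dync1li2, 0.22 for Dync1li1 and 0.13 for Dync1h1, where 21.1% of all tested genes did. The value of Dynlt3 depended on single libraries: its log2 fold change was 1.41 without NrasQ61K replicate 2 (adjusted p 0.00633 by edgeR) and 0.56 without NrasQ61K replicate 1 (adjusted p 0.388 by edgeR). It was 0.77 without Ezh2Y646N replicate 1 (adjusted p 0.606) and 1.04 without Ezh2Y646N replicate 2 (adjusted p 0.357).

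Among the transcription factors, RFX proteins bind the X-box, and none passed. Rfx1 was at 12.8 and 18.3 CPM with mutant Ezh2 and at 29.4 and 22.8 CPM with NrasQ61K alone, a log2 fold change of -0.75 (SE 0.30, interval -1.45 to -0.048, unadjusted p = 0.0393, adjusted p 0.311 by edgeR). Rfx3, a regulator of cilium genes in many tissues, was at 24.4 and 19.2 CPM against 37.8 and 27.6 CPM, or -0.58 as log2 fold change (SE 0.28; adjusted p 0.414 by edgeR). In both genes the groups did not overlap, as in 44.2% of all tested genes. For the other 4 of the 6 tested factors, Foxj1 included, the groups overlapped. Rfx2, Rfx5 and Rfx7 were at 0.018, 0.010 and -0.053. Foxj1, the factor of motile cilia, had 0 counts in Ezh2Y646N replicate 1 and 0.815 to 1.01 CPM in the other libraries. The remaining kinesin-2 gene, Kif3c, was at -0.14.

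**Figure D5:**
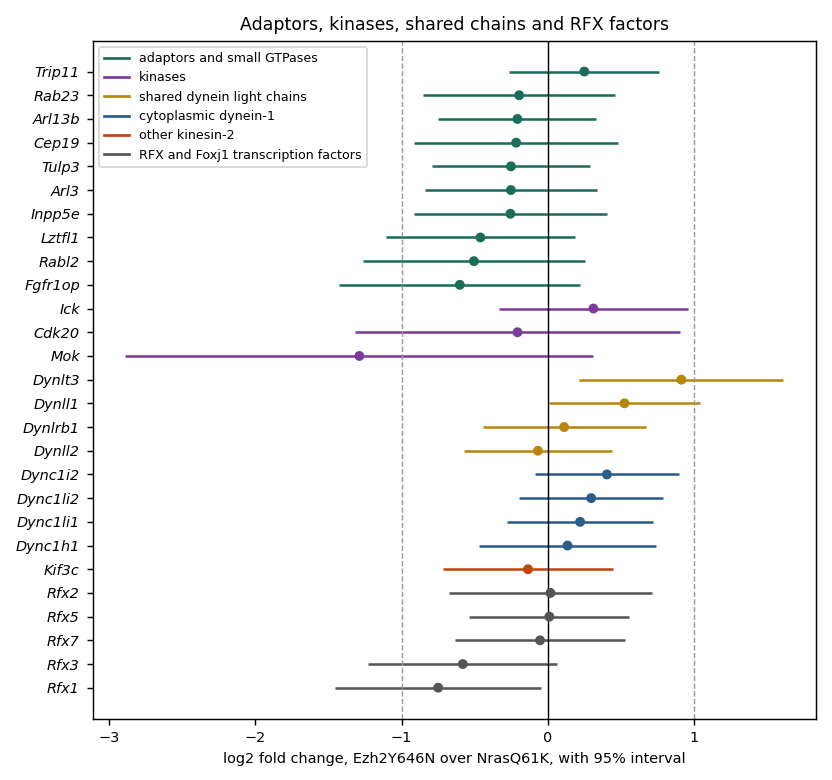
Log2 fold change, Ezh2Y646N over NrasQ61K, with 95% intervals from edgeR (n = 2 libraries per group), for 27 tested genes that work with the transport trains; Foxj1, with 0 counts in 1 library, is not drawn, and dashed lines mark a 2-fold change. Dynlt3 and Dynll1 lie above 0 and Rfx1 below it, none past the adjusted threshold.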

How the data were processed

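The deposited values are raw read counts per Ensembl gene, with no normalization, per the file headers and the values. Per the submitters' processing notes, the genome build was GRCm38 and the tools included STAR 2.5.4b, featureCounts, bcl2fastq 2.19, edgeR and Trimmomatic, with no role stated for any. Neither the strand setting nor the annotation release is stated in the labels. Libraries came from a stranded total RNA kit for small inputs with ribosomal RNA removal, per the labels' protocols.

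Symbols, positions and exon lengths were taken from GENCODE M21 on GRCm38, which held 22291 of the 22524 gene identifiers; coordinates are 1-based. The members and lists were chosen with earlier results of these data known. Among the markers, Flg and Krt85 had no row, and 1 marker list is not reported here. Testing used the quasi-likelihood functions of edgeR 4.0.16 (R 4.3.3), with filterByExpr at a minimum of 10 counts and 15 in all, TMM, a robust quasi-likelihood fit with group as its term and 2 residual degrees of freedom, and Benjamini-Hochberg adjustment over all genes tested at 0.05. The procedure was checked on simulated counts. Each SE is the size of the log2 fold change divided by the square root of its F value. DESeq2 1.42.0, limma 3.58.1 voom, RLE size factors, no filter, a fit that was not robust, a replicate block and leaving out each library were alternatives, and the longest transcript was one for gene length. Full values were given for the 2 members with the smallest p per subcomplex, Kif7 and any member with an unadjusted p under 0.05; values of others were added where libraries stood apart. The floor for 0 counts is 3 counts.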

Additional observations from a re-analysis of the deposited data

How the results depend on the processing

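With 2 libraries per group, the members' 95% intervals had a median half-width of 1.57-fold. Across all tested genes, same-numbered libraries deviated together only weakly (Pearson r 0.0950). This does not settle whether replicate numbers pair the libraries, and the labels do not say. Marker lists differed in this. The median log2 of replicate 1 over replicate 2 for proliferation genes was 1.16 in NrasQ61K and 0.75 in Ezh2Y646N. For fibroblast markers it was 0.81 in NrasQ61K and -1.04 in Ezh2Y646N. With the replicate block edgeR called 1 member, Ift20 (adjusted p 0.0396), and 1 other pathway gene, Dynlt3, while calls over all genes went from 253 to 1337. Without a filter on low counts 1 other pathway gene, again Dynlt3, passed and 0 members did. The cause was not tested.

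Under the alternatives that kept all libraries, 31 members kept their sign. Ift27 was at -0.0020 with the block and -0.0011 in voom, Hspb11 at 0.0027 with RLE, 0.061 with the block, 0.0022 in DESeq2 and 0.025 in voom, and Rfx2 at -0.0068 in voom. Each lay within 0.1 of 0. The median over the members was 0.0027 with RLE and 0.0022 in DESeq2.

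Leaving out 1 library at a time called 0 members, and 1 to 2 had an unadjusted p under 0.05. Other pathway genes past the threshold numbered 0 to 1. Medians ran from -0.29 to 0.10 for peripheral IFT-B and from -0.11 to 0.20 for kinesin-2. They ran from -0.036 to 0.20 for the IFT-B core, from -0.13 to 0.12 for dynein-2 and from -0.080 to 0.027 for IFT-A. Log2 fold changes kept their sign for 14 members and took both signs for 19: Ift122 (-0.068 to 0.26), Ift140 (-0.093 to 0.37), Ift27 (-0.23 to 0.20), Ift46 (-0.042 to 0.16), Ift74 (-0.31 to 0.20), Ift88 (-0.14 to 0.33), Hspb11 (-0.41 to 0.59), Ttc26 (-0.92 to 0.13), Ttc30b (-0.93 to 0.43), Ift80 (-0.73 to 0.032), Traf3ip1 (-0.36 to 0.32), Cluap1 (-0.13 to 0.41), Dync2h1 (-0.14 to 0.23), Wdr60 (-0.66 to 0.16), Tctex1d2 (-0.24 to 0.094), Kif3a (-0.15 to 0.32), Kifap3 (-0.18 to 0.29), Kif17 (-0.27 to 0.61) and Kif7 (-0.30 to 0.30). Among other pathway genes 8 did: Rab23 (-0.44 to 0.012), Cdk20 (-0.58 to 0.093), Dynll2 (-0.16 to 0.040), Dynlrb1 (-0.10 to 0.29), Kif3c (-0.32 to 0.021), Rfx2 (-0.19 to 0.20), Rfx5 (-0.11 to 0.14) and Rfx7 (-0.23 to 0.20).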
